A study of Mus musculus with 11 samples.

Results

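Mitochondrial fatty acid oxidation genes and target genes of PPAR-alpha were followed across 3 groups of whole mouse kidneys. The genes were taken from a list of 33 names, by a row of that name in the count file of each library, out of 24914 rows per file. Of the 33, 28 had a row, and all 28 passed the filter on low counts that left 14380 loci. Hadha, Hadhb, Etfb, Acot13 and Slc27a2 were not analysed here. The reads of Acads, Acad11, Decr1 and Ucp2 were identical in every library to those of another name (Gm13826, Ccrl1, XLOC_016890 and Dnajb13) and could not be assigned to either name of the pair.

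All kidneys came from 129X1/SvJ mice at 5.5 weeks of age. Knockouts (Col4a3-/-) treated with antimiR-21, which inhibits the microRNA miR-21, gave 4 libraries (KO antimiR-21). Knockouts that received PBS gave 4 (KO PBS), and heterozygotes (Col4a3+/-) that received PBS gave 3 (HET PBS). Loss of Col4a3, a chain of basement membrane collagen, models Alport syndrome; the HET PBS mice also carry a null allele, and the solvent was PBS rather than a control oligonucleotide. The labels do not say whether each library came from a separate animal, so p-values measure the spread between these libraries. Each library held 17.9 to 39.7 M counts after names with identical counts were joined.

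Long-chain fatty acids enter mitochondria through the carnitine shuttle, and each turn of beta-oxidation then uses an acyl-CoA dehydrogenase, a hydratase, a hydroxyacyl-CoA dehydrogenase and a thiolase, with electrons passed on through the electron transfer flavoprotein. The proximal tubule of the kidney relies on this pathway for much of its energy. PPAR-alpha, a nuclear receptor for fatty acids, binds DNA as a pair with RXR and raises transcription of many of these genes. Bulk kidney RNA cannot tell fewer cells of a type from less RNA per cell.

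The element that PPAR-alpha and RXR bind is made of 2 copies of AGGTCA, 1 base apart. RefSeq promoter windows (GRCm38.p6, 250 bases before to 50 after the start) were found for 22 of the 28 genes, and 6 of these (27.3%) held the element with at most 2 mismatches in its 12 fixed letters on either strand. Of 27025 genes with a window, 4.40% held it. The 6 stretches are shown because they carry the letters that the list's name refers to; capitals mark the element, each is read 5′ to 3′ on its gene's own strand, and the first 5 have 24 bases of flank on each side.
Fabp1: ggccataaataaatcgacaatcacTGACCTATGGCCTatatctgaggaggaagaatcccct
Cd36: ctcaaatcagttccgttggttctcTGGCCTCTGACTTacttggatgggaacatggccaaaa
Echs1: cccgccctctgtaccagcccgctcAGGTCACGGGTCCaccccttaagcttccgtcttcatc
Etfa: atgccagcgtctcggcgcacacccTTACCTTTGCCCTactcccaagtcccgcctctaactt
Plin2: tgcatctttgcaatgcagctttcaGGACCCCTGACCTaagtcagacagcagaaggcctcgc
Slc25a20: AGGTGAAAGGTCG
The Fabp1 stretch (chr6:71199788-71199848, plus strand) had 1 mismatch, and its element was centred 61 bases before the start. The others had 2 mismatches each, at chr5:17835923-17835983 on the minus strand for Cd36, chr7:140116468-140116528 on the minus strand for Echs1, chr9:55512284-55512344 on the minus strand for Etfa, chr4:86670248-86670308 on the minus strand for Plin2 and chr9:108662142-108662154 on the plus strand for Slc25a20. In Slc25a20 the element lay 12 bases after the start. A match is a description of these letters and not a bound site.

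No gene of the list differed between groups at an adjusted p under 0.05 (edgeR quasi-likelihood test with Benjamini-Hochberg adjustment over all loci). Of the 28 log2 differences, 21 were negative in KO PBS against HET PBS and 25 were positive in KO antimiR-21 against KO PBS. These counts depended on the fit: positive differences in KO antimiR-21 against KO PBS numbered 20 of 28 with Y-linked status as a term and 20 of 28 with a clock index as a term, both described further on. Those in KO PBS against HET PBS numbered 6 of 28 with Y-linked status and 11 of 28 with the clock index. The median log2 difference of the 28 was 0.14 in KO antimiR-21 against KO PBS (0.0038 over all loci), 0.0045 in KO antimiR-21 against HET PBS (-0.0024 over all loci) and -0.14 in KO PBS against HET PBS (-0.015 over all loci). Both of the comparisons with KO PBS share those 4 libraries, so a high or low KO PBS library moves them in opposite directions. Such a library can move many genes together, so the counts by sign are not 28 separate results. Shares of all loci by sign were not counted.

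**Figure D1:**
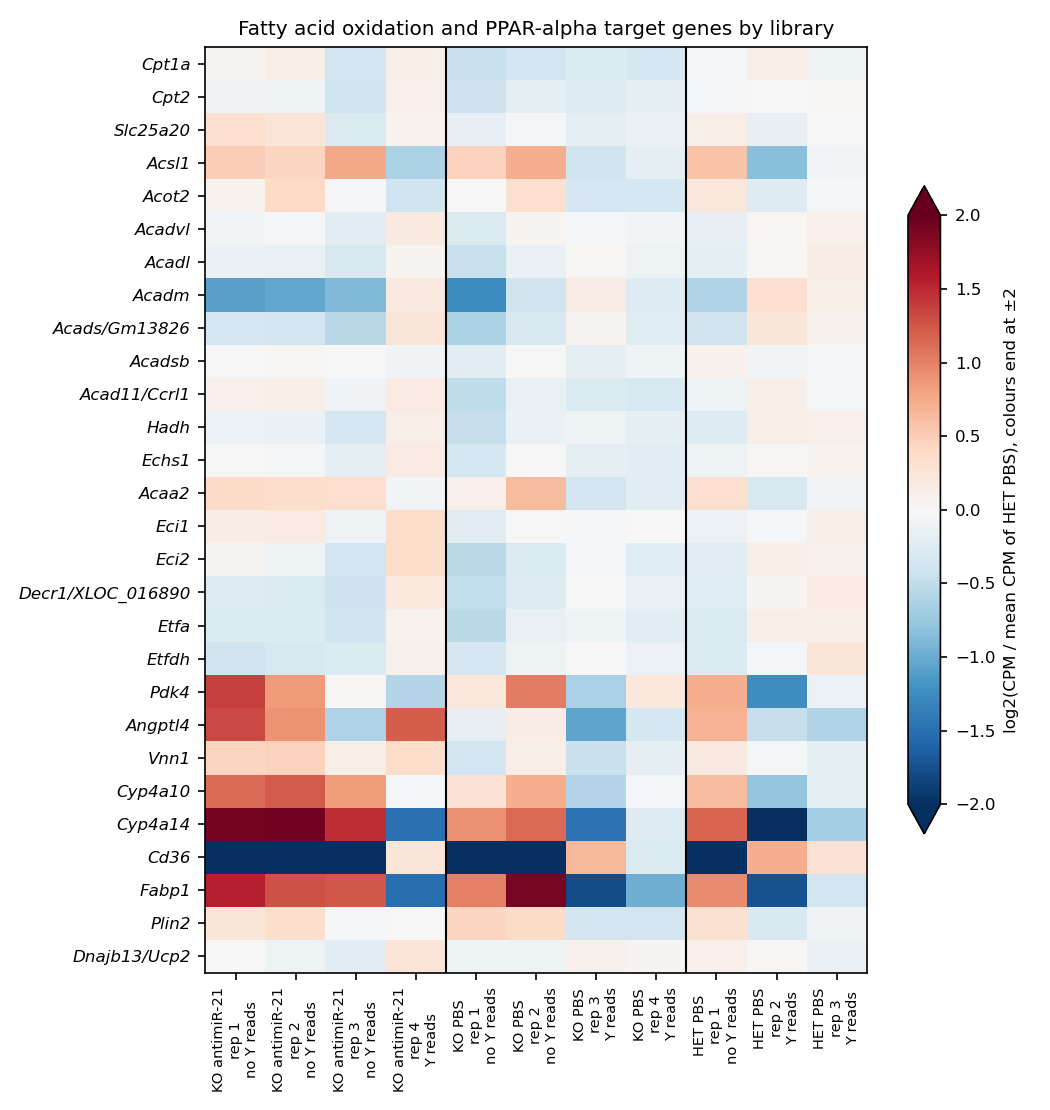
Heat map of the 28 genes (rows) in the 11 libraries (columns), coloured by the log2 ratio of CPM to the mean of HET PBS, with colours ending at ±2. KO antimiR-21, KO PBS and HET PBS columns stand from left to right, and the labels say which libraries had Y-linked reads; Cd36, Fabp1 and Cyp4a14 split by those reads within each group.

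Adjusted p-values passed 0.05 for 0.0% of all loci in KO antimiR-21 against KO PBS, for 0.00695% in KO antimiR-21 against HET PBS and for 0.0% in KO PBS against HET PBS. The lowest adjusted p of a listed gene was 0.326, 0.59 and 0.56 in these comparisons. At an unadjusted p under 0.05, 4 of the 28 were higher and 0 lower in KO antimiR-21 against KO PBS, where 4.76% of all loci were higher and 3.46% lower. In KO antimiR-21 against HET PBS 1 was higher and 0 lower, with 5.04% of all loci higher and 3.01% lower. In KO PBS against HET PBS 0 were higher and 3 lower, with 4.21% of all loci higher and 2.73% lower. The 4 became 9 without KO antimiR-21 replicate 3 and 7 without KO PBS replicate 2, and the 3 became 0 without HET PBS replicate 2. Without KO antimiR-21 replicate 3, loci called higher at an adjusted p under 0.05 in KO antimiR-21 against KO PBS also rose, from 0 to 16. Shares of all loci at the unadjusted p were not counted for these fits.

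Cpt1a (chromosome 19, 3322334 to 3385733, plus strand, GRCm38), the carnitine palmitoyltransferase that commits long-chain fatty acids to the mitochondrion, stood at 695, 720, 519 and 720 CPM (a level, the count relative to the TMM-scaled total of its library) in KO antimiR-21. It stood at 490, 511, 554 and 526 CPM in KO PBS and at 649, 719 and 631 CPM in HET PBS. All 4 KO PBS libraries were below all 3 HET PBS libraries, and 3 of the 4 KO antimiR-21 libraries were above every KO PBS library while the remaining one, replicate 3, lay inside the KO PBS range. The log2 difference was 0.35 (SE 0.111, adjusted p = 0.405) in KO antimiR-21 against KO PBS and -0.36 (SE 0.119, adjusted p = 0.569) in KO PBS against HET PBS by edgeR.

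Cpt2 (chromosome 4, 107903981 to 107923610), which releases the fatty acid on the inner side of the membrane, averaged 201 ± 28.2 CPM in KO antimiR-21, 180 ± 13.2 CPM in KO PBS and 215 ± 3.25 CPM in HET PBS (SD, n = 4, 4 and 3). The 4 KO PBS libraries, at 161 to 190 CPM, lay below the 3 HET PBS libraries at 211 to 218 CPM, with a log2 difference of -0.26 (SE 0.110, adjusted p = 0.683). KO antimiR-21 ran from 163 to 232 CPM and overlapped both groups. Slc25a20, the carrier that exchanges acylcarnitine for carnitine, averaged 83.5 ± 15.3 CPM in KO antimiR-21, 71.0 ± 3.47 CPM in KO PBS and 77.1 ± 7.77 CPM in HET PBS, and all ranges overlapped.

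Acad11, an acyl-CoA dehydrogenase, was measured with Ccrl1 as a joint locus (Acad11 lies on chromosome 9, 104063377 to 104127725). It stood at 354, 356, 313 and 367 CPM in KO antimiR-21, at 232, 296, 269 and 264 CPM in KO PBS and at 305, 356 and 324 CPM in HET PBS. KO PBS libraries lay below every library of the other groups, and Acad11 was the only listed gene whose KO antimiR-21 and KO PBS ranges were apart. The log2 difference was 0.39 (SE 0.0946, adjusted p = 0.326) in KO antimiR-21 against KO PBS and -0.31 (SE 0.102, adjusted p = 0.56) in KO PBS against HET PBS.

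Ranges were apart for 1 listed gene as higher and 0 as lower in KO antimiR-21 against KO PBS, and for 2.34% and 1.95% of all loci. In KO PBS against HET PBS they were apart for 0 as higher and for Cpt1a, Cpt2 and Acad11 as lower, and for 3.55% and 3.21% of all loci. DESeq2, run as an alternative, put Acad11 (adjusted p = 0.0231) and Vnn1 (adjusted p = 0.0337) past 0.05 in KO antimiR-21 against KO PBS, and 0 of the 28 in the other comparisons. Over all loci it called 79 higher and 49 lower in KO antimiR-21 against KO PBS, where edgeR called 0.

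**Figure D2:**
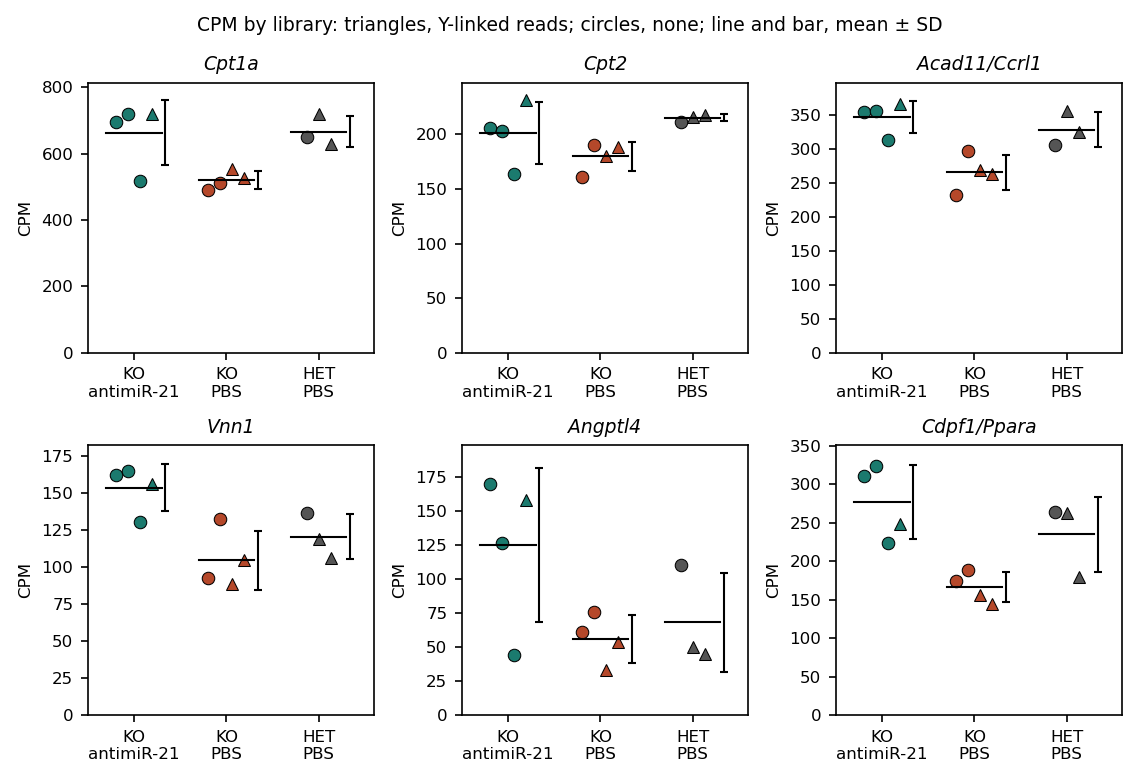
CPM of Cpt1a, Cpt2, Acad11/Ccrl1, Vnn1, Angptl4 and Cdpf1/Ppara in each library, by group, with the mean and its SD; axes start at 0. Triangles are libraries with Y-linked reads; KO PBS points of Cpt1a (490 to 554 CPM) lie below all HET PBS points (631 to 719 CPM).

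No chain-length dehydrogenase had an unadjusted edgeR p under 0.05 in any comparison. Acadvl, for very long chains, averaged 510 ± 56.8 CPM in KO antimiR-21, 490 ± 46.2 CPM in KO PBS and 517 ± 49.9 CPM in HET PBS. Acadl, for long chains, differed by 0.022 (SE 0.121) in KO antimiR-21 against KO PBS and by -0.16 (SE 0.13) in KO PBS against HET PBS, on the log2 scale. Acadm, for medium chains, varied most of this family: its KO antimiR-21 libraries held 877, 901, 1007 and 2102 CPM, its KO PBS libraries 769, 1407, 2066 and 1550 CPM and its HET PBS libraries 1223, 2337 and 2010 CPM. The groups overlapped widely, and high and low Acadm libraries occurred in each of them. The log2 difference of Acadm in KO PBS against HET PBS, -0.36, was about as large as that of Cpt1a but had an SE of 0.383.

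Of the enzymes that follow, Hadh, the hydroxyacyl-CoA dehydrogenase for short and medium chains, averaged 663 ± 90.1 CPM in KO antimiR-21, 613 ± 66.7 CPM in KO PBS and 712 ± 101 CPM in HET PBS. Echs1, the short-chain enoyl-CoA hydratase, differed by 0.17 (SE 0.10) in KO antimiR-21 against KO PBS and by -0.18 (SE 0.108) in KO PBS against HET PBS. Eci1 and Eci2, isomerases for unsaturated chains, differed by 0.21 (SE 0.103) and 0.27 (SE 0.156) in KO antimiR-21 against KO PBS. None of these log2 differences had an unadjusted edgeR p under 0.05. Etfdh, which hands electrons to ubiquinone, Acadm and Cd36 were the 3 genes with a negative difference in KO antimiR-21 against KO PBS, at -0.087 (SE 0.136), -0.25 (SE 0.356) and -0.86 (SE 1.31).

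**Figure D3:**
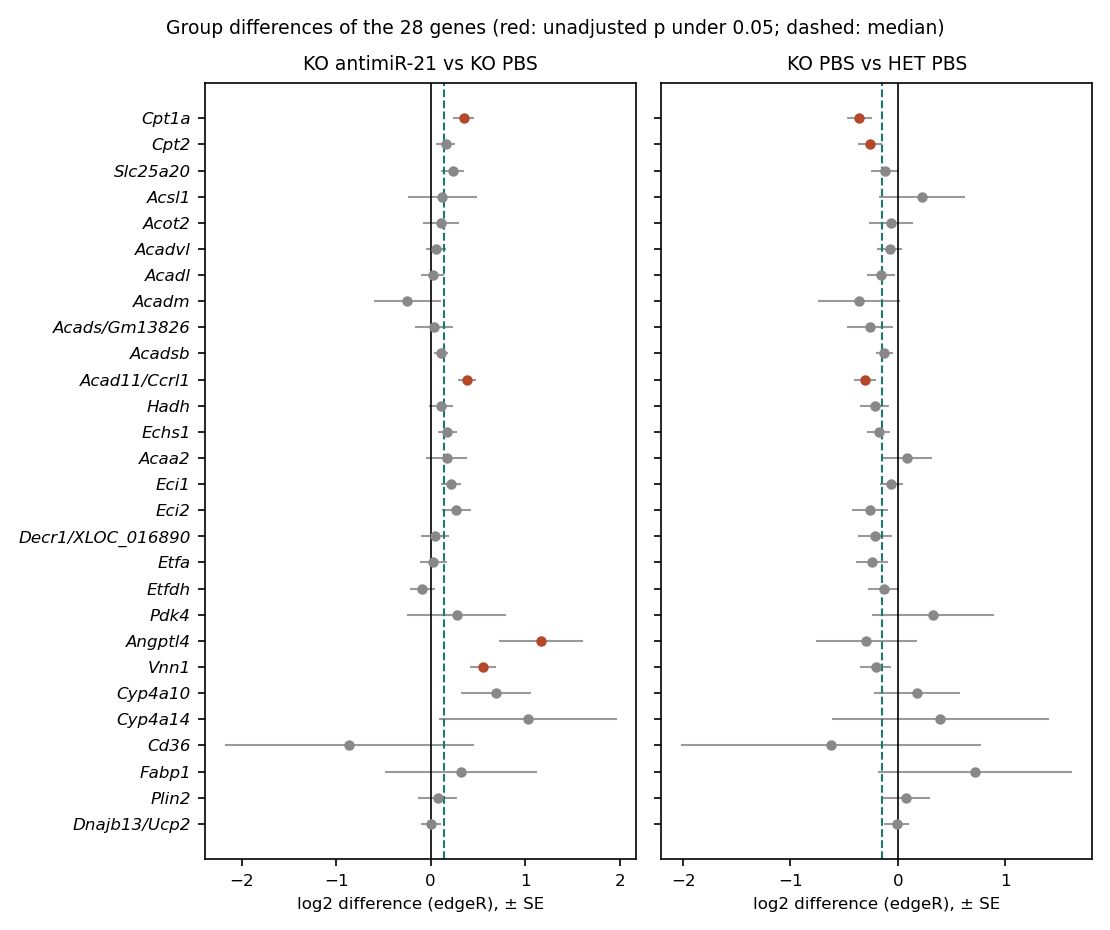
Log2 differences of the 28 genes (points) with their SE (bars) for KO antimiR-21 against KO PBS (left) and KO PBS against HET PBS (right); red points have an unadjusted p under 0.05 and the dashed line is the median of the 28, 0.14 and -0.14. The 4 red points of the left panel lie right of 0 and the 3 of the right panel left of 0.

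Among the PPAR-alpha targets outside the oxidation spiral, Vnn1 (chromosome 10, 23894688 to 23905343), the pantetheinase vanin-1, stood at 162, 165, 130 and 156 CPM in KO antimiR-21. It stood at 92.3, 133, 88.2 and 105 CPM in KO PBS and at 137, 119 and 106 CPM in HET PBS. KO antimiR-21 replicate 3 lay below KO PBS replicate 2, and the other KO antimiR-21 libraries lay above every library of the other groups. Vnn1 differed by 0.55 (SE 0.134, adjusted p = 0.326) in KO antimiR-21 against KO PBS, and it was the only listed gene with p under 0.05 in KO antimiR-21 against HET PBS (log2 difference 0.35, SE 0.145, adjusted p = 0.59).

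Angptl4 (chromosome 17, 33773750 to 33781830), a secreted inhibitor of lipoprotein lipase, stood at 170, 127, 44.4 and 158 CPM in KO antimiR-21, at 61.0, 75.3, 32.8 and 53.5 CPM in KO PBS and at 110, 49.7 and 44.8 CPM in HET PBS. Replicates 1, 2 and 4 of KO antimiR-21 were the highest of all 11 libraries, and replicate 3 lay among the KO PBS libraries. The log2 difference was 1.16 (SE 0.444, adjusted p = 0.531) in KO antimiR-21 against KO PBS. Pdk4, the kinase that restrains pyruvate oxidation, averaged 52.3 ± 29.4 CPM in KO antimiR-21, 43.3 ± 20.1 CPM in KO PBS and 34.6 ± 21.6 CPM in HET PBS, and its groups overlapped.

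The Cyp4a enzymes hydroxylate the end of the fatty acid chain. Cyp4a10 averaged 608 ± 202 CPM in KO antimiR-21, 376 ± 139 CPM in KO PBS and 332 ± 166 CPM in HET PBS (log2 difference 0.69, SE 0.371, adjusted p = 0.697 in KO antimiR-21 against KO PBS). Of its 50-base stretches in the GENCODE transcripts, 29.8% also occur in other genes, most often in Cyp4a32, so its counts may include reads of that paralog, and Acot2 shares 27.7%, mostly with Acot1. Cyp4a14 shares 0.235%; it stood at 1117, 1132, 823 and 105 CPM in KO antimiR-21, at 556, 648, 106 and 247 CPM in KO PBS and at 662, 42.3 and 182 CPM in HET PBS. Each group held both high and low Cyp4a14 libraries, and the difference between KO antimiR-21 and KO PBS was 1.03 with an SE of 0.939.

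That spread within groups went with reads from the Y chromosome. The labels give no sex, and the libraries of a group differed: Ddx3y, a Y-linked gene, was above 5 CPM in 1 of 4 KO antimiR-21, 2 of 4 KO PBS and 2 of 3 HET PBS libraries. With this status as a term beside the groups, 16 of the 28 genes differed between the 5 libraries with Y-linked reads and the 6 without at an adjusted edgeR p under 0.05, 9 of them higher and 7 lower. Over all loci the shares were 11.1% higher and 6.85% lower. Ranges of the libraries were apart for 5 of the 28 as higher (Cd36, Acadm, Acads, Acadl and Decr1) and 6 as lower (Fabp1, Cyp4a14, Cyp4a10, Acsl1, Acaa2 and Acot2), and for 8.14% and 4.14% of all loci. These are groups set from the counts, not groups of the study. Summed proximal tubule markers were apart by this status as well, as given further on.

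Cd36, a fatty acid transporter of the cell surface, had the largest such difference of the 28. Its libraries with Y-linked reads held 914 CPM in KO antimiR-21, 1221 and 631 CPM in KO PBS and 1285 and 946 CPM in HET PBS. Those without held 61.7, 62.2 and 71.3 CPM in KO antimiR-21, 67.7 and 94.5 CPM in KO PBS and 90.4 CPM in HET PBS. The mean level was thus 13.4 times as high with Y-linked reads, whatever the group (log2 difference 3.64, SE 0.183, adjusted p = 6.38e-07).

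Acadm rose with Y-linked reads to 2013 ± 287 CPM (SD, n = 5), against 1031 ± 240 CPM without (SD, n = 6), with an adjusted edgeR p of 0.0019. The other genes higher with Y-linked reads were also enzymes of fatty acid oxidation: Acads, the dehydrogenase for short chains (log2 difference 0.52, SE 0.0896), Decr1 (0.38, SE 0.072) and Eci2 (0.36, SE 0.0891), which act on unsaturated chains, and Acadl, Hadh, Etfa and Etfdh at 0.26 to 0.31. The genes lower with Y-linked reads were Acsl1, which activates long-chain fatty acids (-1.01, SE 0.142), the thiolase Acaa2 (-0.55, SE 0.103), the thioesterase Acot2 (-0.49, SE 0.0985), the lipid droplet coat gene Plin2 (-0.51, SE 0.104), Cyp4a10 (-0.98, SE 0.156), Cyp4a14 (-2.42, SE 0.483) and Fabp1 (-2.51, SE 0.324). Cyp4a14 averaged 137 ± 79.1 CPM with and 823 ± 249 CPM without them. Fabp1, a liver fatty acid binding protein that was low in these kidneys, averaged 0.407 ± 0.188 CPM with and 2.34 ± 0.615 CPM without them.

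**Figure D4:**
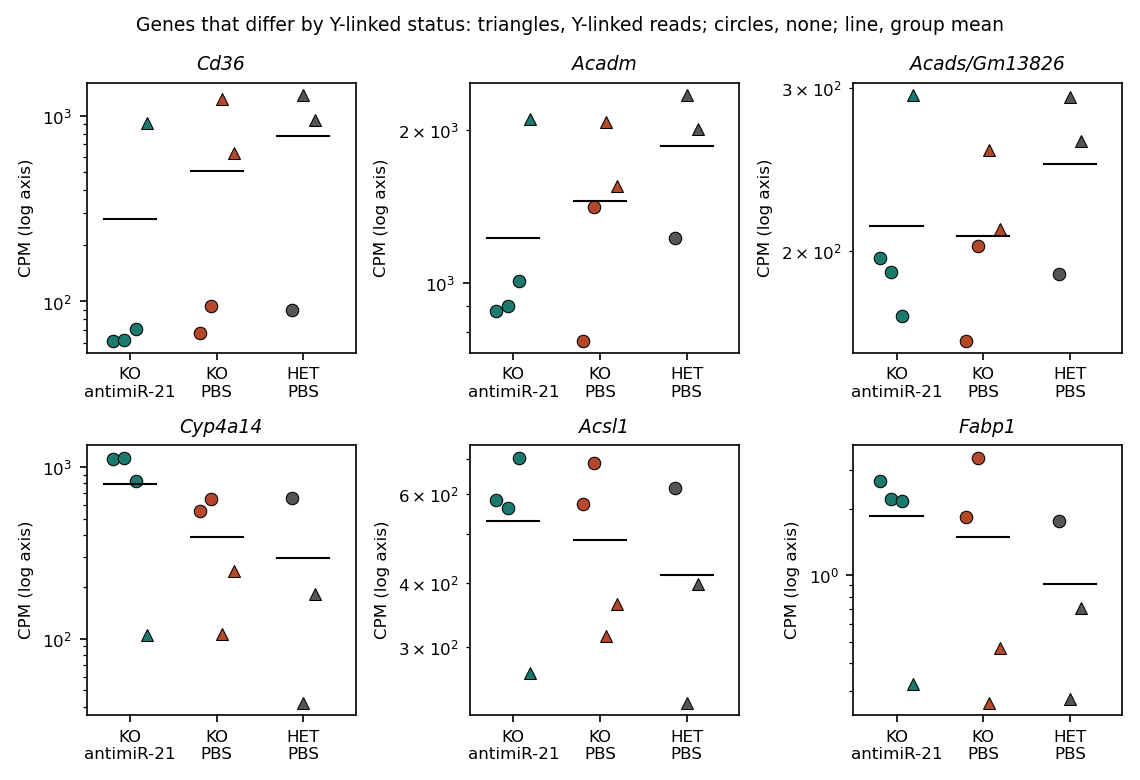
CPM (log axis) of Cd36, Acadm, Acads/Gm13826, Cyp4a14, Acsl1 and Fabp1 by group, with triangles for libraries with Y-linked reads, circles for those without and lines for group means. In all 6 panels the triangles of all groups are apart from the circles, upward for Cd36, Acadm and Acads/Gm13826 and downward for the others.

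Cpt1a, Cpt2, Acad11, Vnn1 and Angptl4 did not pass the same test of Y-linked status (adjusted p = 0.289 to 0.501). Among libraries with Y-linked reads 23 of the 28 genes had a higher mean in KO antimiR-21 (1 library) than in KO PBS (2 libraries), with a median log2 difference of 0.24. Among those without, 19 of the 28 did (3 and 2 libraries, median 0.093). KO PBS was lower than HET PBS for 23 of the 28 with (2 and 2 libraries, median -0.18) and for 22 of the 28 without Y-linked reads (2 libraries and 1, median -0.12). With 1 to 3 libraries on each side, a shift of 1 library can move many genes together, so these counts are not 28 separate results. Shares of all loci were not counted for them. Cpt1a differed by 0.42 with and 0.35 without Y-linked reads in KO antimiR-21 against KO PBS, and by -0.32 with and -0.38 without in KO PBS against HET PBS. With Y-linked status as a term, 7 of the 28 had an unadjusted p under 0.05 as higher in KO antimiR-21 against KO PBS, the 3 added being Eci1, Eci2 and Cyp4a10, and the lowest adjusted p was 0.139. The share of all loci at that unadjusted p was not counted for this fit, so the rise cannot be set beside a background. A test of whether that difference itself depends on Y-linked status passed for 0 loci (lowest adjusted edgeR p of a listed gene 0.322), with only 1 KO antimiR-21 library having Y-linked reads.

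The libraries also differed in clock genes, several of whose outputs are metabolic. A clock index was taken as the mean log2 CPM of 8 genes of the daytime phase (Tef and Per1 among them) minus that of 5 genes of the opposite phase (Arntl and Npas2 among them). The KO antimiR-21 libraries had an index of 4.43, 4.39, 2.56 and 4.01, the KO PBS libraries one of 2.11, 1.95, 1.78 and 1.85, and the HET PBS libraries one of 3.83, 4.23 and 1.94. All KO PBS libraries lay below all KO antimiR-21 libraries, so treatment and clock index cannot be told apart between these groups.

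KO antimiR-21 replicate 3, the library of its group with the lowest index, was also its lowest in Cpt1a (519 CPM), Cpt2 (163 CPM), Slc25a20 (62.8 CPM), Acad11 (313 CPM), Vnn1 (130 CPM) and Angptl4 (44.4 CPM). The same held for Acadl, Acadvl, Acads, Hadh, Echs1, Eci1, Eci2, Decr1, Etfa, Plin2 and Ucp2. In the remaining listed genes this library was not the lowest, and in Acsl1 (706 CPM) it was the highest. Of the genes lowest in it, Acadl, Acads, Hadh, Eci2, Decr1 and Etfa were higher and Plin2 lower with Y-linked reads, as given above. Only 1 KO antimiR-21 library had such reads, and it was not replicate 3. The share of all loci lowest in replicate 3 was not counted, so these genes cannot be set beside a background. The part of the clock index in their low values was not tested. HET PBS replicate 3, whose index lay within the KO PBS range, had 631 CPM of Cpt1a, 218 CPM of Cpt2 and 324 CPM of Acad11, all above every KO PBS library. It had 77.7 CPM of Slc25a20, also above every KO PBS library. Its 106 CPM of Vnn1 and 44.8 CPM of Angptl4 lay within the KO PBS range.

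With the clock index as a term beside the groups, 0 of the 28 genes kept an unadjusted edgeR p under 0.05 in any of the 3 comparisons; over all loci 1.16% did as higher in KO antimiR-21 against KO PBS and 1.9% as lower in KO PBS against HET PBS. Cpt1a then differed by 0.080 (SE 0.147) in KO antimiR-21 against KO PBS and by -0.17 (SE 0.128) in KO PBS against HET PBS. Angptl4 turned to -0.13 (SE 0.578) in KO antimiR-21 against KO PBS, while Acad11 stood at 0.28 (SE 0.145) and Vnn1 at 0.28 (SE 0.187). The index itself, tested within groups, had an unadjusted edgeR p under 0.05 for Angptl4 (0.61 log2 per unit of index, SE 0.237) and Cpt1a (0.14, SE 0.0582). It passed an adjusted p of 0.05 for 0 of the 28 and for 0.16% of all loci.

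**Figure D5:**
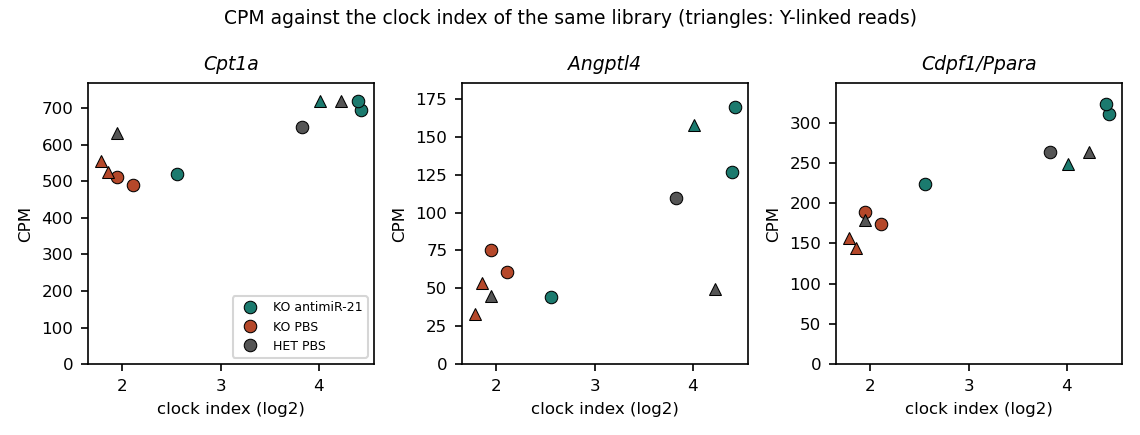
CPM of Cpt1a, Angptl4 and Cdpf1/Ppara against the clock index (log2) of the same library, coloured by group, with triangles for Y-linked reads. KO PBS libraries sit at an index of 1.78 to 2.11, with KO antimiR-21 replicate 3 at 2.56 and the other KO antimiR-21 libraries at 4.01 to 4.43.

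Ppara itself shares its reads with the neighbouring Cdpf1 as a joint locus, on the opposite strand 4152 bases away. The Cdpf1/Ppara locus stood at 311, 324, 224 and 248 CPM in KO antimiR-21, at 174, 189, 156 and 145 CPM in KO PBS and at 263, 263 and 179 CPM in HET PBS. All KO antimiR-21 libraries lay above all KO PBS libraries (log2 difference 0.74, SE 0.156, adjusted p = 0.312). HET PBS replicate 3, with its low clock index, lay inside the KO PBS range. Of 24 regulators of the pathway tested, 7 had a positive difference in KO PBS against HET PBS and 15 in KO antimiR-21 against KO PBS, and 0 passed an adjusted p of 0.05. Ppard, the delta form of the receptor, had a difference of the opposite sign to the Cdpf1/Ppara locus, at 28.8 ± 7.42 CPM in KO antimiR-21 and 52.9 ± 13.9 CPM in KO PBS (log2 difference -0.88, SE 0.30, adjusted p = 0.462). With the clock index as a term, the difference in KO antimiR-21 against KO PBS was 0.22 (SE 0.145) for the Cdpf1/Ppara locus and -0.026 (SE 0.312) for Ppard. Hnf4a, a transcription factor of the proximal tubule, averaged 982 ± 124 CPM in KO antimiR-21, 837 ± 84.9 CPM in KO PBS and 1033 ± 121 CPM in HET PBS.

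Neighbouring pathways were described by the same counts. At an unadjusted edgeR p under 0.05, 4.76% of all loci were higher and 3.46% lower in KO antimiR-21 against KO PBS. In KO PBS against HET PBS 4.21% of all loci were higher and 2.73% lower. Of 30 other genes of mitochondrial acyl-CoA metabolism tested, 23 had a positive difference in KO antimiR-21 against KO PBS, 5 of them higher at an unadjusted edgeR p under 0.05, and 24 had a negative difference in KO PBS against HET PBS, 6 of them lower and 1 higher at that p. Acsm5, a medium-chain acyl-CoA synthetase, held 442, 445, 353 and 381 CPM in KO antimiR-21 and 267, 295, 296 and 314 CPM in KO PBS, without overlap (log2 difference 0.47, SE 0.101, adjusted p = 0.313). Slc22a5, the carnitine transporter of the cell membrane, averaged 340 ± 49.4 CPM in KO antimiR-21, 250 ± 27.9 CPM in KO PBS and 342 ± 31.9 CPM in HET PBS. Its log2 difference was -0.45 (SE 0.128, adjusted p = 0.489) in KO PBS against HET PBS, and all 4 KO PBS libraries lay below all 3 HET PBS libraries.

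Of 17 genes of peroxisomal oxidation and ketone metabolism, 11 had a positive difference in KO antimiR-21 against KO PBS, 3 of them higher at an unadjusted edgeR p under 0.05, and 3 a positive one in KO PBS against HET PBS. The joint Acaa1b/Dlec1 locus, which holds a peroxisomal thiolase, averaged 991 ± 245 CPM in KO antimiR-21, 568 ± 106 CPM in KO PBS and 733 ± 209 CPM in HET PBS (log2 difference 0.80, SE 0.214, adjusted p = 0.334 in KO antimiR-21 against KO PBS). Among 39 genes of lipid uptake, storage and synthesis, 7 were higher and 0 lower at that p in KO antimiR-21 against KO PBS, and 0 were higher and 3 lower in KO PBS against HET PBS. Over all loci 4.76% were higher and 3.46% lower in the first comparison, and 4.21% higher and 2.73% lower in the second. The joint Pdk2/Samd14 locus, which holds a pyruvate dehydrogenase kinase, differed by 0.44 (SE 0.118, adjusted p = 0.334) and -0.35 (SE 0.127, adjusted p = 0.609) in these comparisons, with 0 of the 39 past an adjusted p of 0.05. Dgat2, which makes triglyceride, averaged 280 ± 69.5 CPM in KO antimiR-21, 186 ± 18.4 CPM in KO PBS and 252 ± 37.1 CPM in HET PBS.

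Markers of kidney cell types were counted beside these genes, and their part in the values above was not tested. Of 17 proximal tubule genes tested, 11 had a positive difference in KO antimiR-21 against KO PBS (5 higher at an unadjusted edgeR p under 0.05, median log2 0.18) and 0 had one in KO PBS against HET PBS (6 lower, median -0.26). Over all loci 4.76% were higher in the first comparison and 2.73% lower in the second at that p. The summed level of the 17 genes ran from 31911 to 48028 CPM in KO antimiR-21, from 27364 to 44006 CPM in KO PBS and from 35334 to 54580 CPM in HET PBS, so the kidney label held. It was apart by Y-linked status, at 37085 to 54580 CPM with and 27364 to 35782 CPM without Y-linked reads. Thick ascending limb sums were apart the other way, at 7056 to 9051 CPM with and 9151 to 10259 CPM without. Sums of the other cell type markers overlapped by that status. A sum is set mostly by its most abundant genes, and the single genes of these sums are not given here by Y-linked status. The sums therefore do not measure the amount of a cell type. All 12 tubular injury genes had positive differences in KO PBS against HET PBS, with sums of 2496 to 3195 CPM in KO antimiR-21, 1868 to 7592 CPM in KO PBS and 1052 to 2411 CPM in HET PBS. Sums of 9 fibroblast genes were 679 to 1062, 736 to 1421 and 439 to 690 CPM in KO antimiR-21, KO PBS and HET PBS, and those of 10 macrophage genes 332 to 390, 337 to 416 and 277 to 321 CPM. Sums of thick ascending limb, distal convoluted tubule, collecting duct, podocyte, endothelial and adrenal genes overlapped between all groups. Sums of 4 red cell genes were 79.8 to 200, 62.0 to 134 and 178 to 276 CPM in KO antimiR-21, KO PBS and HET PBS.

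Fat tissue expresses Angptl4, Cd36 and Pdk4 as well. Adipocyte genes summed to 46.4 to 116 CPM in KO antimiR-21, 43.9 to 78.2 CPM in KO PBS and 50.3 to 64.0 CPM in HET PBS, mostly Fabp4. Sums of 3 brown fat genes were 2.46 to 29.8 CPM in KO antimiR-21, 0.751 to 14.1 CPM in KO PBS and 0.222 to 1.48 CPM in HET PBS, so all KO antimiR-21 libraries lay above all HET PBS libraries while the KO PBS range overlapped both; their part in the values above was not tested. KO antimiR-21 replicate 1 had the highest adipocyte sum, with 4.37 CPM of Adipoq and 17.1 CPM of Ucp1, and also the highest Angptl4 (170 CPM) and Pdk4 (89.0 CPM). Its Cd36, which split by Y-linked reads, was the lowest of all libraries (61.7 CPM). In KO antimiR-21 replicate 4, Adipoq and Plin1 were at 0, but the adipocyte sum was 64.1 CPM, and Angptl4 stood at 158 CPM. The part of fat tissue in these Angptl4 and Pdk4 values was not tested. The joint Col4a3/Col4a4 locus averaged 640 ± 129 CPM in KO antimiR-21, 825 ± 183 CPM in KO PBS and 1065 ± 201 CPM in HET PBS, and since its reads may be those of Col4a4 it does not check the genotype.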

How the data were processed

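Whole-kidney mRNA of 11 libraries in 3 groups was measured. The authors deposited estimated counts per gene name (expected counts, not normalized, in steps of 0.5; 47.4% of values above 0 were not whole) and a matrix of log2 values, which differed from log2 CPM with 0.5 added to each count by a constant per library and served as an alternative. Libraries were made with a TruSeq RNA v2 kit from total RNA, per the labels' protocols, a kit that does not mark strand. Tools named in the submitters' processing notes are STAR, HTSeq 0.5.4p5, SAMtools, FastQC and limma, with genome build mm10; counting settings and annotation were not stated there.

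Names with identical counts in all libraries (total of at least 50) were joined, giving 1513 joint loci, and only the first of the identical rows was kept. How the counting shared reads between such names was not stated, so a joint locus may hold only part of its reads. Unnamed loci held 1.35% of the counts. Counts were rounded to whole numbers, filtered (filterByExpr, 14380 loci), scaled by TMM (factors 0.917 to 1.08) and put through edgeR 4.0.16 (R 4.3.3) (glmQLFit, robust, 3 groups sharing 1 estimate of the spread, 3 two-sided comparisons, Benjamini-Hochberg adjustment at 0.05). Total counts as deposited ran from 22.4 to 49.7 M. The fit was tested on simulated data. Libraries with Ddx3y above 5 CPM were said to have Y-linked reads.

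Alternatives used DESeq2 1.42.0, limma 3.58.1 (voom, and on the deposited log2 matrix), other scalings and filters, rows as deposited, fits of only the groups compared, Y-linked status, the clock index or the replicate number as terms, and each library left out. Both terms together, and groups by Y-linked status, were added after seeing the data. Members and lists were chosen with earlier results of these data known. Named genes were all listed genes, Ppara, Ddx3y, Col4a3 and, from each neighbouring list and comparison, the 2 of at least 5 CPM with the smallest p; examples are printed here, and the marker genes given for single libraries were chosen after their values were seen. Positions come from GENCODE vM21 on GRCm38. Precision is limited by 3 to 4 libraries per group.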

Additional observations from a re-analysis of the deposited data

Results flagged for a closer look

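Each listed gene was examined in both groups of 4 libraries for a library far from the others of its group, by Dixon's criterion. Of 56 such groups 5 had one. The criterion's rate of about 1 in 20 holds for unrelated groups drawn from 1 normal population. These genes share the same libraries and several split by Y-linked reads, so the 5 cannot be set against that rate.

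In KO antimiR-21, Cpt1a had its lowest value, 519 CPM, in replicate 3, with the others at 695 to 720 CPM; this library also had the lowest clock index of its group. Without that replicate, 9 listed genes had an unadjusted edgeR p under 0.05 as higher in KO antimiR-21 against KO PBS. The share of all loci at that p was not counted for this fit, so the 9 cannot be set beside a background. Loci called higher at an adjusted p under 0.05 in that comparison also rose, from 0 to 16.

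Replicate 4, the only KO antimiR-21 library with Y-linked reads, was the far one for 3 genes. It held 2102 CPM of Acadm against 877 to 1007 CPM in the others, 914 CPM of Cd36 against 61.7 to 71.3 CPM, and 425 CPM of Acaa2 against 555 to 576 CPM. The same genes split by Y-linked reads in KO PBS and HET PBS.

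In KO PBS, Eci1 was lowest in replicate 1, at 137 CPM against 160 to 163 CPM in the others; that library had the highest summed injury markers, 7592 CPM, whose part in this value was not tested.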

How the results depend on the processing

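With each library left out in turn, listed genes lower in KO PBS against HET PBS (unadjusted p under 0.05) numbered 0 to 4 (0 without HET PBS replicate 2), against 3 with all libraries. Those higher in KO antimiR-21 against KO PBS numbered 3 to 9 and those lower 0 to 1, and those higher or lower in KO antimiR-21 against HET PBS 0 to 4 and 0 to 6 (4 without HET PBS replicate 1 or KO antimiR-21 replicate 3, 0 without HET PBS replicate 2 or 3 or KO antimiR-21 replicate 1 or 2; 2 lower without HET PBS replicate 1 and 6 lower without KO antimiR-21 replicate 4). Loci called higher numbered 0 to 2 in KO PBS against HET PBS (2 without KO PBS replicate 2), 0 to 16 in KO antimiR-21 against KO PBS (16 without KO antimiR-21 replicate 3) and 0 to 4 in KO antimiR-21 against HET PBS (4 without KO PBS replicate 1). The median of the 28 genes ran from -0.166 to -0.097, from 0.0989 to 0.228 and from -0.0202 to 0.0803 in these comparisons.

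DESeq2 called 73 loci higher and 10 lower in KO PBS against HET PBS, 79 and 49 in KO antimiR-21 against KO PBS, and 64 and 9 in KO antimiR-21 against HET PBS. In that last comparison 2 listed genes were higher at an unadjusted p under 0.05 with DESeq2, limma-voom, library sizes only, the stricter filter, the authors' log2 matrix or Y-linked status as a term, and 0 with the clock index, against 1 by edgeR alone; the 1 called locus became 0 with limma-voom, the stricter filter or the clock index, 2 with Y-linked status or the authors' matrix, and 3 with Y-linked status and clock index together. In KO PBS against HET PBS, 3 loci were called higher with Y-linked status, 1 with the authors' matrix and 1 with both terms, and listed genes lower numbered 0 with the clock index and 0 with both terms. In KO antimiR-21 against KO PBS, listed genes higher numbered 7 with Y-linked status, 0 with the clock index and 2 with both terms. Shares of all loci past the unadjusted p were counted only for the main fit and, in part, for the clock index. Angptl4 reversed in that comparison, to -0.13 with the clock index and -0.041 with both terms.

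Of 10 same-numbered pairs of libraries, 6 deviated together with a correlation over 0.1, among them all 3 pairs of replicate 1, and the others did not (range -0.444 to 0.629). Each of the 6 pairs matched in Y-linked status, and each of the others did not. The labels give no shared litter, batch or day, and not every pair was over 0.1, so the numbers were not taken as pairing the samples. With the replicate number as a block, 2 loci were called higher in KO PBS against HET PBS, 18 higher and 8 lower in KO antimiR-21 against KO PBS, and 3 higher and 1 lower in KO antimiR-21 against HET PBS, where 3 listed genes were higher and 2 lower at an unadjusted p under 0.05.

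Signs differed in 48, 52 and 49 of 671 values of listed genes under alternatives in KO PBS against HET PBS, KO antimiR-21 against KO PBS and KO antimiR-21 against HET PBS. Genes with an unadjusted p under 0.05 kept their sign in every alternative run, except Angptl4. Causes were not tested.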
